A study of Homo sapiens with 8 samples.

Results

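The genes described here encode the receptors and signal transducers through which a cell responds to interferon: the receptor chains IFNAR1, IFNAR2, IFNLR1 and IFNGR1, the kinase JAK1, the transcription factor STAT2, and the interferon regulatory factors IRF1, IRF7 and IRF9. They were taken as a named set of 9 genes, each read by the probe set that carries that symbol alone and, where there were several, has the highest mean over the arrays. 8 of the 9 could be read in this way, out of 18417 genes with such a probe set, and each of the 8 had 1 probe set. STAT2 was not analysed here. The cells were T47D, a human breast cancer line of luminal type that carries the estrogen receptor, measured on 8 Affymetrix Human Gene 1.0 ST arrays in 4 groups of 2 from independent cultures. The groups were 17b-HSD1 siRNA with vehicle (ethanol), control (scrambled) siRNA with vehicle, 17b-HSD1 siRNA with 1 nM estradiol (E2), and control siRNA with 1 nM E2. The enzyme 17b-HSD1 (a hydroxysteroid dehydrogenase, gene HSD17B1) reduces estrone to estradiol. All groups were kept in steroid-deprived medium and transfected, the knockdown with 200 nM of a mixture of 3 siRNAs against 17b-HSD1. Medium with E2 or vehicle followed after 48 h, and RNA was taken 2 days later. Both siRNA groups therefore carried transfected double-stranded RNA, and no untransfected cells were analysed here.

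Type I interferons bind a receptor of IFNAR1 and IFNAR2, type III (lambda) interferons one of IFNLR1 and IL10RB, and interferon-γ one of IFNGR1 and IFNGR2. JAK1 is bound to a chain of each of the 3 receptor types and phosphorylates STAT proteins. STAT2 and IRF9 are subunits of ISGF3, which binds the interferon-stimulated response element (ISRE), while STAT dimers bind the gamma-activated site (GAS). IRF1 and IRF7 are transcription factors that are themselves interferon-inducible, and IRF7 drives further interferon transcription.

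The promoters of the members are shown first, because the IRF genes are both parts and known targets of this pathway. RefSeq sequence of GRCh38.p14, from 250 bases before to 50 bases after each gene's start, was found for 6 of the 8 measured members. No such sequence was at hand for IRF7 and IFNAR2, so their promoters were not searched. Both strands were searched for the ISRE core (GAAA, any 2 bases, GAAA) and for the palindromic GAS form TTCNNNGAA. The GAS form was found in the windows of IRF9, IRF1 and IFNLR1, and in 7.66% of all 35116 promoters in the table. These shares count promoters and not genes, and JAK1, IFNGR1 and IFNAR1 had several promoters each. The ISRE core was in none of the 6 members' windows and in 3.57% of all promoters. A match is a description of these letters and does not show that a factor binds. The 250 bases before the start of each of the 3 genes are given 5′ to 3′ on the gene's strand, with the GAS match in capitals.
IRF9, chr14:24161015-24161264, plus strand, match 63 to 55 bases before the start: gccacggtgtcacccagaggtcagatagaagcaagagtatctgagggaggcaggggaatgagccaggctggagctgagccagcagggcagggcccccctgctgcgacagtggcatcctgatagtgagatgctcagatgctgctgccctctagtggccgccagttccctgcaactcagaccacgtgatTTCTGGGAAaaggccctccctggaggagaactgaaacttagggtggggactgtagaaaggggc
IRF1, chr5:132490774-132491023, minus strand, match 124 to 116 bases before the start: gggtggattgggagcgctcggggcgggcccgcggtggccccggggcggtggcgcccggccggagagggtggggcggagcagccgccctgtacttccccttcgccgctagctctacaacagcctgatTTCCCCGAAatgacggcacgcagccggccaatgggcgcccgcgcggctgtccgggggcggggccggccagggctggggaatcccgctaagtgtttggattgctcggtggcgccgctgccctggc
IFNLR1, chr1:24187290-24187539, minus strand, match 238 to 230 bases before the start: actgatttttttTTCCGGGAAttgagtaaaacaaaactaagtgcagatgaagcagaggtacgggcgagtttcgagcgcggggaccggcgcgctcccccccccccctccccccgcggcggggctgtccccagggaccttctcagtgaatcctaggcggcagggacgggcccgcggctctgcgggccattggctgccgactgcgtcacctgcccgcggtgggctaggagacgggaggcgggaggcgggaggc

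Values are log2 probe set signals as the authors deposited them. A change is the log2 difference between groups from limma (± SE), over 4 arrays against 4 when averaged over media and 2 against 2 within a medium. Adjusted p is limma's with Benjamini-Hochberg adjustment over 21214 probe sets, and a probe set was called below 0.05. HSD17B1 signals were 8.32 to 8.41 with 17b-HSD1 siRNA and 8.56 to 9.35 with control siRNA, so the arrays did not overlap. Such a separation downward held for 2.16% of all probe sets. The averaged change of HSD17B1, -0.56 ± 0.16, was not called (adjusted p = 0.221). Luminal epithelial markers averaged 11.46 to 11.76 in the knockdown arrays and 11.49 to 11.78 in the control siRNA arrays. The 7 measured immune cell markers averaged 6.21 to 6.74 and 6.32 to 6.37, the highest in 17b-HSD1 siRNA, vehicle replicate 1, and none was called. That array stood apart from the rest, with a mean correlation of 0.976 with the other arrays against 0.984 to 0.988 for the others. Results that turn on it are also given without it. RNA was taken from whole cultures, so fewer cells with a transcript and less of it per cell cannot be told apart.

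None of the 8 members was called in any comparison. In the averaged knockdown 0.24% of all probe sets were called higher and 0.217% lower. By unadjusted p below 0.05, 2 members were higher, IRF9 and IRF1, as were 3.66% of all probe sets. IRF9 and IRF1 had signals in all 4 knockdown arrays above all 4 control arrays, which held for 2.24% of all probe sets. IRF7 was higher on average with overlapping arrays. The 4 receptor chains differed by less than 0.1 on the log2 scale, and JAK1 was lower on average with overlapping arrays. The median averaged change of the 8 members was -0.06, against 0.01 for all probe sets tested, and it was 0.08 without 17b-HSD1 siRNA, vehicle replicate 1.

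**Figure D1:**
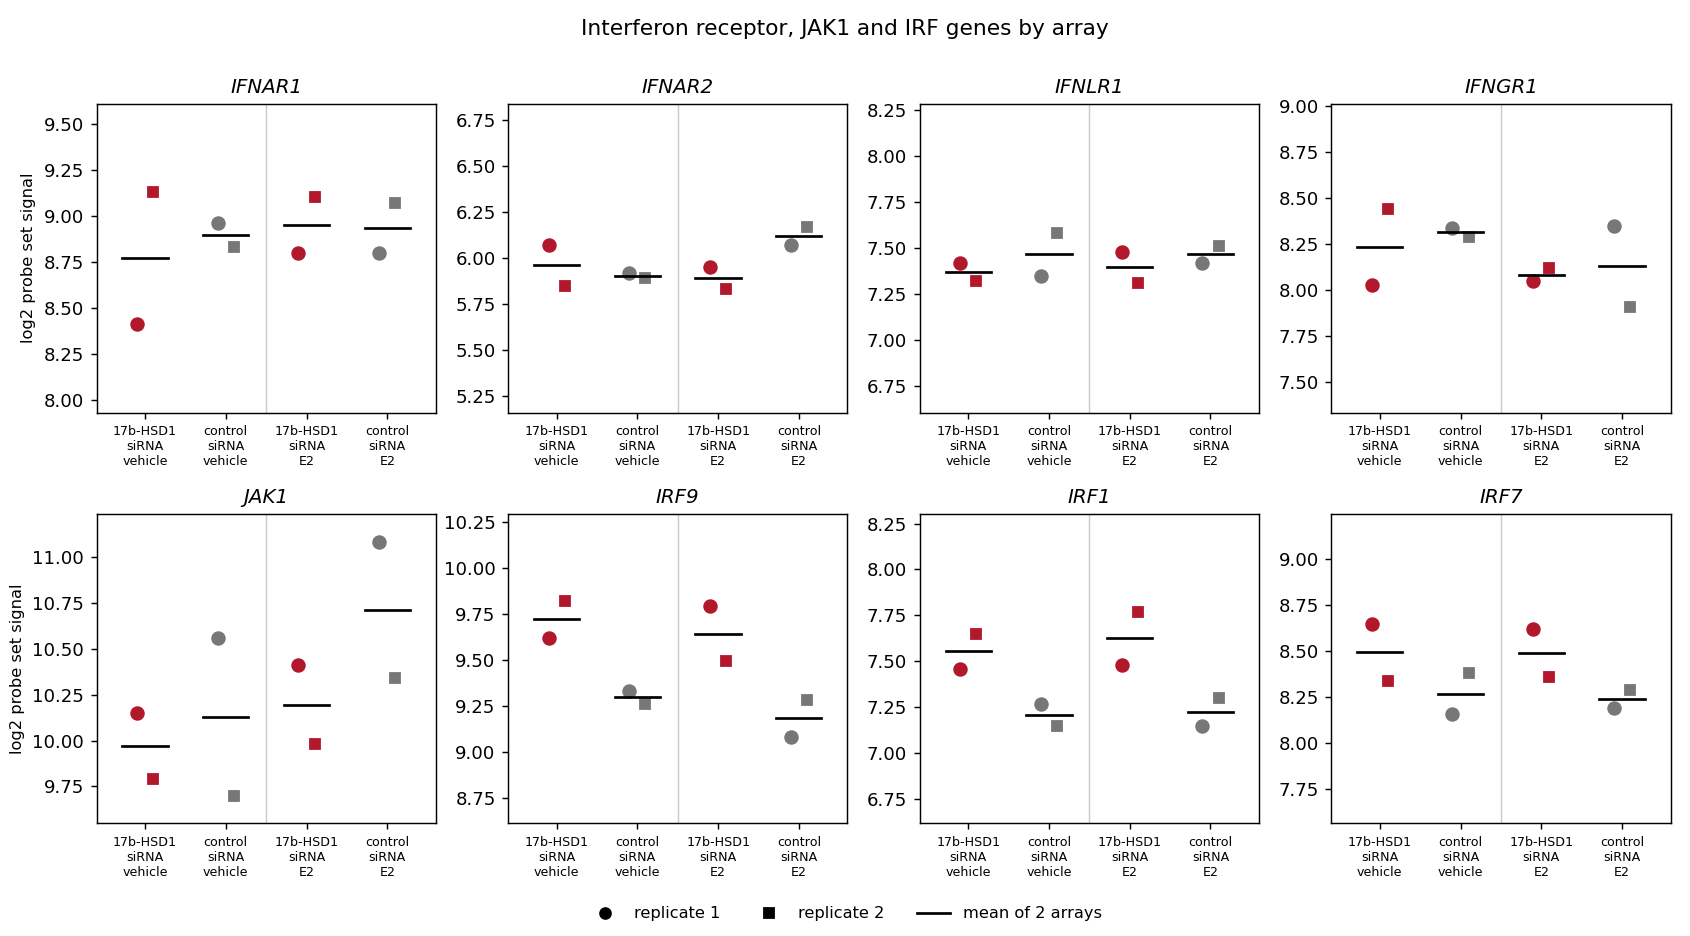
The plot gives the log2 probe set signal (y axis, the same span in each panel) of the 8 measured members in each array, by group (x axis), with circles for replicate 1, squares for replicate 2 and bars for the mean of 2 arrays. IRF9 and IRF1 lie higher in every knockdown array than in any control siRNA array, while the receptor chains overlap and JAK1 is higher in replicate 1 than in replicate 2 of each group.

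Among the receptors, IFNAR1, the signalling chain of the type I receptor that binds ligand with lower affinity, had signals of 8.41 and 9.13 in 17b-HSD1 siRNA with vehicle and 8.96 and 8.83 in control siRNA with vehicle. In E2 it had 8.80 and 9.10 with 17b-HSD1 siRNA and 8.80 and 9.07 with control siRNA. The knockdown arrays lay on both sides of the controls in vehicle and covered the same values in E2. The averaged change was -0.06 ± 0.16 (adjusted p = 0.975), and 0.12 without 17b-HSD1 siRNA, vehicle replicate 1.

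IFNAR2, the high-affinity chain of that receptor, had 6.07 and 5.85 in 17b-HSD1 siRNA with vehicle, against 5.92 and 5.89 in control siRNA with vehicle. In E2 both knockdown arrays (5.95 and 5.83) lay below both control siRNA arrays (6.07 and 6.17). Such a separation downward in E2 was found for 20.0% of all probe sets, and IFNAR2's change there was -0.23 ± 0.15 (adjusted p = 1). Its averaged change was -0.09 ± 0.10 (adjusted p = 0.922).

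IFNLR1, the chain that is specific to the lambda interferon receptor and is found mainly on epithelial cells, had 7.42 and 7.32 with 17b-HSD1 siRNA and 7.35 and 7.58 with control siRNA in vehicle. In E2 the values were 7.48 and 7.31 with 17b-HSD1 siRNA and 7.42 and 7.51 with control siRNA. It varied least of the members, and its averaged change was -0.08 ± 0.11 (adjusted p = 0.927).

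IFNGR1, the ligand-binding chain of the interferon-γ receptor, had 8.03 and 8.44 with 17b-HSD1 siRNA and 8.34 and 8.29 with control siRNA in vehicle. With E2 present the values were 8.05 and 8.12 with 17b-HSD1 siRNA and 8.35 and 7.91 with control siRNA. The groups overlapped in both media, and the averaged change was -0.06 ± 0.13 (adjusted p = 0.964), or 0.04 without 17b-HSD1 siRNA, vehicle replicate 1.

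How large a change these arrays leave possible is given by limma's 95% intervals, which are not adjusted for the number of genes. The interval of the averaged knockdown ran as a fold from 0.757 to 1.22 for IFNAR1, from 0.803 to 1.10 for IFNAR2, from 0.803 to 1.11 for IFNLR1 and from 0.783 to 1.17 for IFNGR1. A change within these limits, in either direction, remains possible, so the intervals do not show that receptor transcripts stayed the same. They are not limits of detection, and a change beyond them need not have been called.

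JAK1, the kinase that the receptors share, had signals of 10.15 and 9.79 in 17b-HSD1 siRNA with vehicle, against 10.56 and 9.70 in control siRNA with vehicle. In E2 it had 10.41 and 9.98 with 17b-HSD1 siRNA, against 11.08 and 10.34 with control siRNA. Replicate 1 was above replicate 2 in all 4 groups, by 0.36 to 0.86. The averaged knockdown change was -0.34 ± 0.21 (0.791-fold, adjusted p = 0.742), with an interval from 0.573- to 1.09-fold. It ran from -0.55 without control siRNA, vehicle replicate 2 to -0.12 without control siRNA, vehicle replicate 1, with adjusted p from 0.245 to 1 over all 8 arrays left out in turn.

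Set against the control array of the same replicate number, JAK1 in knockdown arrays differed by -0.41 and 0.09 in vehicle and by -0.67 and -0.36 in E2, so it was lower in 3 of the 4 pairs. The change was -0.16 ± 0.30 in vehicle (adjusted p = 0.967) and -0.51 ± 0.30 in E2 (adjusted p = 1). With the replicate number as a block the SE of the averaged change was 0.11 and the adjusted p was 0.244, which is also not a call.

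The IRF genes were the members with higher signals after 17b-HSD1 siRNA. IRF9, the DNA-binding subunit of ISGF3, had 9.62 and 9.82 in 17b-HSD1 siRNA with vehicle, against 9.33 and 9.26 in control siRNA with vehicle. In E2 it had 9.79 and 9.49 with 17b-HSD1 siRNA, against 9.08 and 9.28 with control siRNA. The lowest knockdown array was 9.49 and the highest control array 9.33, so the groups did not overlap. The means were 9.68 ± 0.16 with 17b-HSD1 siRNA and 9.24 ± 0.11 with control siRNA (SD, n = 4 each).

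IRF9's averaged change was 0.44 ± 0.11 (1.36-fold, interval 1.14 to 1.62) and had the smallest p of the members, unadjusted 0.00261 and adjusted 0.154. The change was 0.42 ± 0.16 in vehicle (adjusted p = 0.827) and 0.46 ± 0.16 in E2 (adjusted p = 0.89). Leaving out any 1 array gave averaged changes from 0.37 to 0.52, with adjusted p from 0.11 to 0.653.

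IRF1, a transcription factor induced mainly through GAS sites, had 7.46 and 7.65 in 17b-HSD1 siRNA with vehicle, against 7.27 and 7.15 in control siRNA with vehicle. Under E2 its signals were 7.48 and 7.77 with 17b-HSD1 siRNA, against 7.15 and 7.30 with control siRNA. Here too every knockdown array lay above every control array, with means of 7.59 ± 0.15 with 17b-HSD1 siRNA and 7.22 ± 0.08 with control siRNA (SD, n = 4 each).

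The averaged change of IRF1 was 0.37 ± 0.11 (1.30-fold, interval 1.09 to 1.54, unadjusted p = 0.00672, adjusted p = 0.233). It was 0.35 ± 0.16 in vehicle (adjusted p = 0.916) and 0.40 ± 0.16 in E2 (adjusted p = 1). Without any 1 array the averaged change ran from 0.30 to 0.45, with adjusted p from 0.146 to 0.733.

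IRF7, the factor that amplifies interferon-α and -β transcription, had 8.65 and 8.34 in 17b-HSD1 siRNA with vehicle and 8.16 and 8.38 in control siRNA with vehicle. In E2 it had 8.62 and 8.36 with 17b-HSD1 siRNA and 8.19 and 8.29 with control siRNA. Replicate 1 of each knockdown group was above every control array, while replicate 2 of each lay within the range of the 4 controls, whose highest was 8.38. The averaged change was 0.24 ± 0.12 (1.18-fold, interval 0.983 to 1.41, adjusted p = 0.59), or 0.16 without 17b-HSD1 siRNA, vehicle replicate 1.

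**Figure D2:**
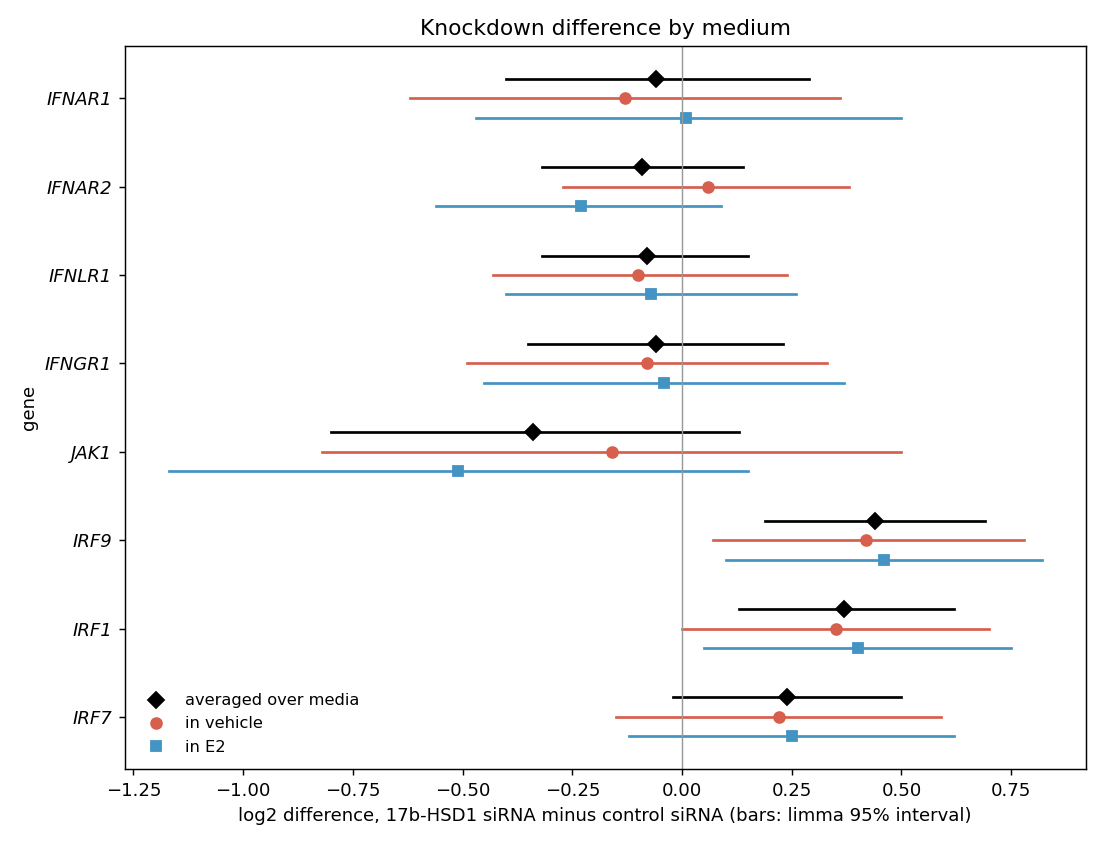
The plot gives the log2 difference between 17b-HSD1 siRNA and control siRNA (x axis) for each measured member (y axis), with limma's unadjusted 95% interval as a bar, averaged over media (diamonds), in vehicle (circles) and in E2 (squares). The averaged intervals of IRF9 (0.19 to 0.69) and IRF1 (0.13 to 0.62) lie above 0, and those of the other 6 members include it.

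Medium by medium, no probe set at all was called, a share of 0.0% in vehicle and in E2, although 5.45% in vehicle and 4.61% in E2 had an unadjusted p below 0.05. Those shares count both directions, and upward changes alone made up 1.67% in vehicle and 2.46% in E2. By unadjusted p, IRF9 was higher in vehicle (0.0242) and in E2 (0.0158), and IRF1 in E2 (0.0289) with 0.051 in vehicle. In vehicle 2 of the 8 members, IRF9 and IRF1, had both knockdown arrays above both controls, as did 11.4% of all probe sets. In E2 there were 3, IRF9, IRF1 and IRF7, against 18.1% of all probe sets.

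The difference of the knockdown change between media, E2 minus vehicle, was 0.04 ± 0.23 for IRF9, 0.05 ± 0.23 for IRF1 and 0.03 ± 0.24 for IRF7. The widest was -0.35 ± 0.42 for JAK1, followed by -0.29 ± 0.21 for IFNAR2. No probe set was called in this comparison (0.0%). All 8 members had an adjusted p of 1, and none had an unadjusted p below 0.05, against 0.66% of all probe sets. The intervals, for instance -0.47 to 0.54 for IRF9, leave room for differences as large as the change itself.

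E2 itself, averaged over the siRNAs, called none of the 8 members, against 1.55% of all probe sets, and none had an unadjusted p below 0.05, against 8.89%. JAK1 had the largest change, 0.41 ± 0.21 (1.33-fold, adjusted p = 0.69). It was higher in E2 in all 4 pairs of the same replicate number, by 0.26 and 0.20 with 17b-HSD1 siRNA and by 0.52 and 0.64 with control siRNA. With the replicate block its adjusted p was 0.122. The other 7 members had averaged E2 changes between -0.17 for IFNGR1 and 0.11 for IFNAR1.

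Similarity of pattern was described for the 4 members with the largest averaged changes, as Pearson's r over the 8 arrays among 18417 genes. Closest to IRF9 were OTUB2 (0.984), ZFYVE26 (0.971) and TPP1 (0.97), and to IRF1 SETD5 (0.974), MCM9 (0.957) and ZNFX1 (0.954). Closest to IRF7 were PHYHD1 (0.978), MKRN3 (0.973) and NCKAP5L (0.967), and to JAK1 PTGES2 (0.99), UBQLN4 (0.979) and DNAAF5 (0.972). The arrays share replicate number, siRNA or medium with one another, and these coefficients only describe them.

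The rest of the pathway was read from lists of genes other than the members. Upstream of the receptors, 4 of the 7 interferon genes had all knockdown arrays above all control arrays, against 2.24% of all probe sets. None was called, and the median change of the list was 0.47. The 4 were IFNL1, IFNB1, and IFNL2 and IFNL3, whose probe sets may not tell these last genes apart. IFNL1, a lambda interferon gene, had 8.05 and 8.35 with 17b-HSD1 siRNA and 7.80 and 7.77 with control siRNA in vehicle. In E2 it had 8.20 and 8.31 with 17b-HSD1 siRNA and 7.70 and 7.75 with control siRNA. Its averaged change was 0.47 ± 0.11 (1.39-fold, adjusted p = 0.0961).

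IFNL2, another lambda gene, changed by 0.64 ± 0.14 (1.56-fold, adjusted p = 0.0881), was called with the replicate block (adjusted p = 0.0122, or 0.0738 and no call with the control siRNA, vehicle numbers crossed) and was called at 0.77 without control siRNA, vehicle replicate 2. IFNB1, the interferon-β gene, changed by 0.53 ± 0.14 (adjusted p = 0.163), at a low mean signal of 5.54, above only 10.4% of the probe sets tested. IFNL3, named after its values were seen, is a near-identical copy of IFNL2 that the probe sets may not tell apart, and changed by 0.54 ± 0.14 (adjusted p = 0.165, or 0.0489 with the replicate block). The interferon-γ gene IFNG stood at -0.08 ± 0.11, also named after its values were seen.

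The 6 upstream adaptors and kinases had a median averaged change of 0.05 with none called, and their 3 smallest p belonged to MAVS (-0.07 ± 0.10), MYD88 (0.06 ± 0.10) and IKBKE (0.05 ± 0.11). The partner receptor chains were likewise not called, with IL10RB, which pairs with IFNLR1, at 0.15 ± 0.11 and IFNGR2 at -0.04 ± 0.10. Of the other Janus kinases, JAK2, which serves the interferon-γ receptor, changed by 0.33 ± 0.15 (adjusted p = 0.504), JAK3 by -0.14 ± 0.12 and TYK2, which is bound to IFNAR1, by 0.02 ± 0.10.

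None of the 5 other STAT genes measured was called. STAT3, which carries signals of the interleukin-6 family among others, had 11.62 and 11.62 in 17b-HSD1 siRNA with vehicle and 11.11 and 11.42 in control siRNA with vehicle. The E2 arrays gave 11.58 and 11.56 with 17b-HSD1 siRNA and 10.70 and 11.16 with control siRNA. The knockdown arrays were close together and above every control, with an averaged change of 0.50 ± 0.13 (1.41-fold, adjusted p = 0.144). Such a separation upward held for 2.24% of all probe sets, and the control arrays were spread from 10.70 to 11.42. STAT5A changed by 0.22 ± 0.13 and STAT6 by 0.05 ± 0.11.

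The 5 other IRF genes measured had a median of 0.09 with none called. IRF2, which competes with IRF1 for its sites, changed by 0.27 ± 0.14 (adjusted p = 0.616), IRF5 by 0.13 ± 0.10 and IRF8 by 0.09 ± 0.12.

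Of the 13 negative regulators none was called in the averaged knockdown, and their median was -0.03. USP18, an interferon-induced protease that binds IFNAR2 and blocks its signalling, had 8.45 and 8.61 in 17b-HSD1 siRNA with vehicle and 7.62 and 7.87 in control siRNA with vehicle. Under E2 there were signals of 8.81 and 8.93 with 17b-HSD1 siRNA and 7.77 and 8.51 with control siRNA. Only control siRNA, E2 replicate 2 reached into the range of the knockdown arrays.

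USP18's averaged change was 0.76 ± 0.15 (1.69-fold, adjusted p = 0.0675). It was called with the replicate block (adjusted p = 0.0127, or 0.0477 with the control siRNA, vehicle numbers crossed) and without control siRNA, E2 replicate 2 (0.94, adjusted p = 0.00444). PIAS3, an inhibitor of STAT3, changed by -0.22 ± 0.12 and SOCS3, a feedback inhibitor of cytokine receptors, by -0.19 ± 0.13. CISH, a feedback inhibitor in STAT5 signalling, rose with E2 (0.58 ± 0.12, 1.49-fold, adjusted p = 0.0384), as 1.32% of all probe sets did, but its averaged knockdown change was -0.03 ± 0.12. That E2 call was lost without any 1 of 7 of the 8 arrays and after a further quantile normalization.

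**Figure D3:**
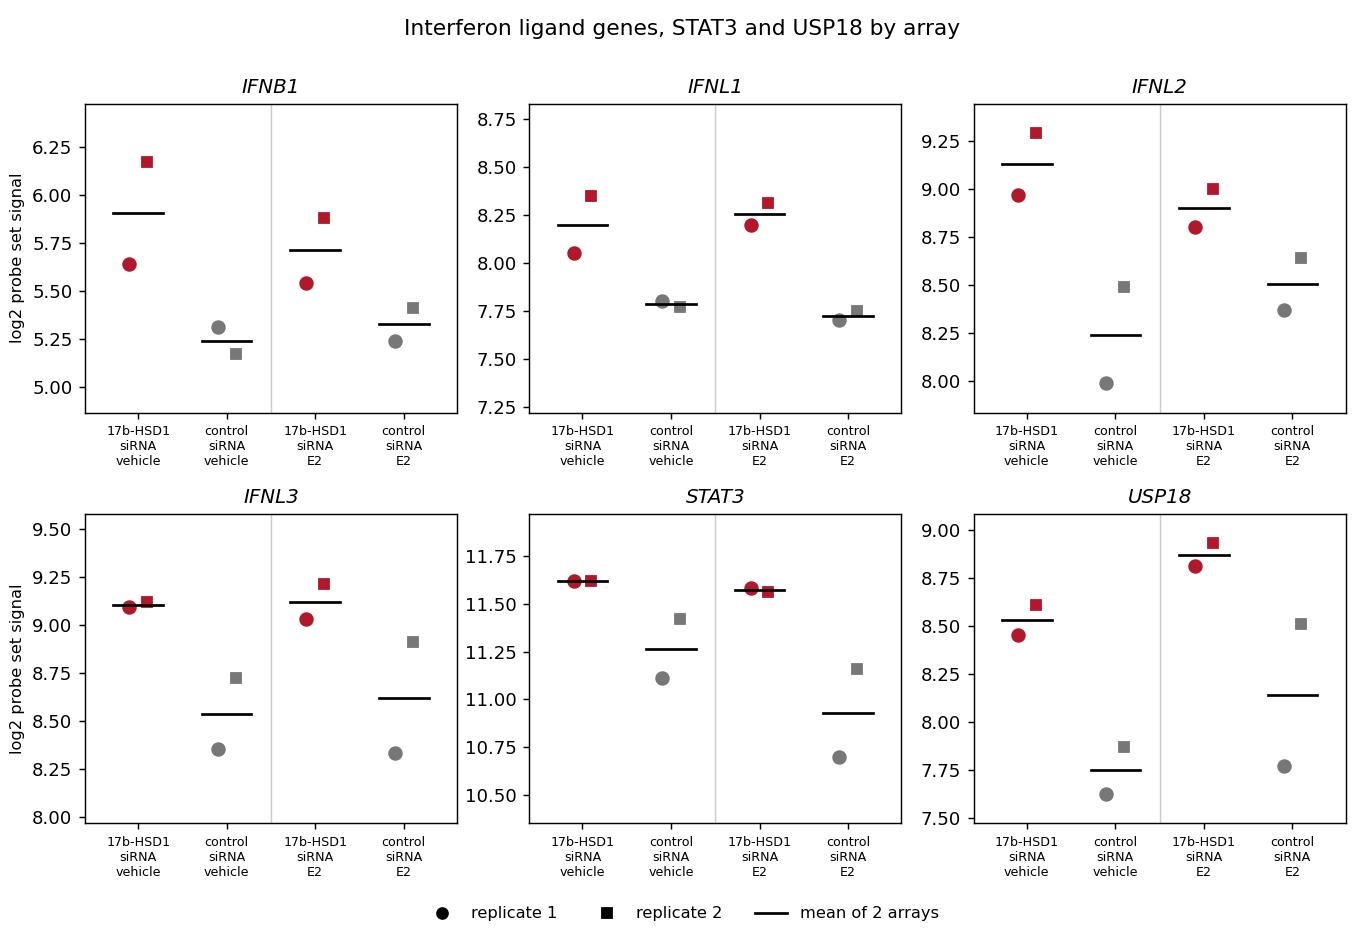
The plot gives the log2 probe set signal (y axis, the same span in each panel) of 4 interferon genes, STAT3 and USP18 in each array, by group (x axis), with circles for replicate 1, squares for replicate 2 and bars for the mean of 2 arrays. The knockdown arrays of IFNL1 (8.05 to 8.35) lie above its control arrays (7.70 to 7.80), and USP18 in control siRNA, E2 replicate 2 (8.51) lies within its knockdown range.

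Downstream of the transducers lay the listed pathway genes that were called in the averaged knockdown. Of 12 genes of the ISGF3 type, 4 rose in the averaged knockdown (IFI44L, IFIT3, RSAD2 and IFI27), against 0.24% of all probe sets. The list median was 1.03. With the replicate block and its control siRNA, vehicle numbers crossed, IFI44L, IFIT3, RSAD2 and IFI27 were also called (adjusted p from 0.00891 to 0.0274). With the block's numbers as labelled, which assumes that pairing, 10 of the 12 rose, against 0.726% of all probe sets. The count was 10 without control siRNA, E2 replicate 2, was 1 without control siRNA, vehicle replicate 1 or without either 17b-HSD1 siRNA, vehicle array, and was 0 when either of the E2 arrays with 17b-HSD1 siRNA was left out. Of 9 measured genes of the interferon-γ type, with a list median of 0.14, 2 rose, against the same 0.24% of all probe sets. The 2 called were PSMB9, an immunoproteasome subunit gene (1.23 ± 0.19, adjusted p = 0.0197), and TAP1, a peptide transporter gene (1.09 ± 0.15, adjusted p = 0.0138). Their count was 1 without control siRNA, vehicle replicate 1, was 3 without 17b-HSD1 siRNA, vehicle replicate 1, and was 0 when either of the E2 arrays of the knockdown was left out. Without either of those E2 arrays no call remained in the averaged knockdown of the whole series, as given in the last section. PSMB9 and TAP1 each had 3 probe sets with that symbol alone, and only the probe set with the highest mean was read. NLRC5, a transactivator of class I genes, changed by 0.41 ± 0.10 (adjusted p = 0.118). The other measured genes of this list, named after their values were seen, were not called either. They were CXCL10 (0.46 ± 0.14), CXCL9 (0.14 ± 0.10), GBP2 (0.11 ± 0.14), CIITA (0.09 ± 0.12), SOCS1 (0.05 ± 0.13) and ICAM1 (0.04 ± 0.13). Which type of interferon the called genes responded to, if any, was not tested.

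The mean signal of the ISGF3-type targets was 9.76 and 10.4 in 17b-HSD1 siRNA with vehicle, 8.55 and 8.96 in control siRNA with vehicle, 10.22 and 10.46 in 17b-HSD1 siRNA with E2, and 8.47 and 9.70 in control siRNA with E2. Control siRNA, E2 replicate 2 was the highest control array for the targets, just below the lowest knockdown array. The same array stood at 9.28 for IRF9 and at 7.30 for IRF1, where the lowest knockdown arrays were 9.49 and 7.46.

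**Figure D4:**
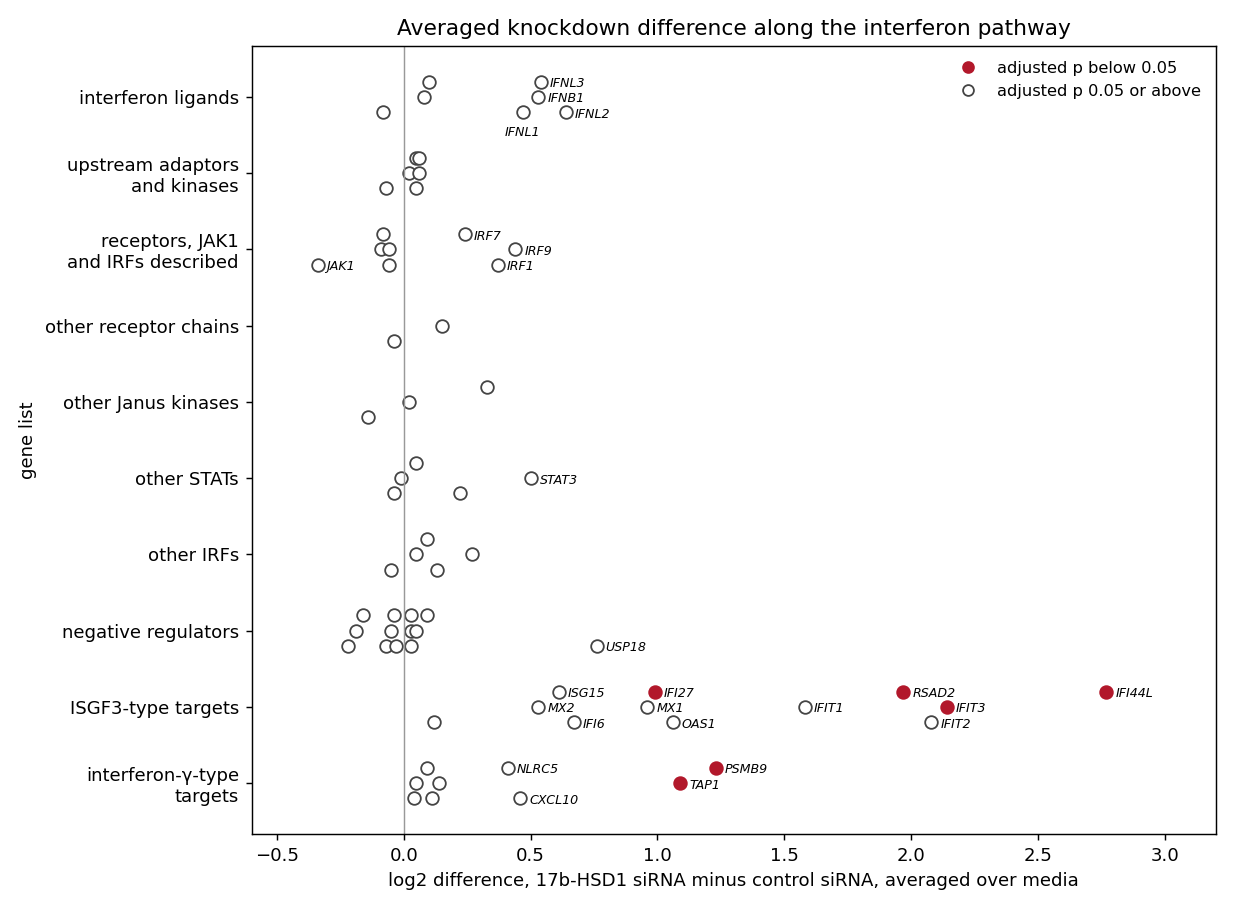
The plot gives the averaged log2 difference between 17b-HSD1 siRNA and control siRNA (x axis) of each measured gene (1 point), by list (y axis), with filled points for adjusted p below 0.05. The filled points are IFI44L, IFIT3, RSAD2, IFI27, PSMB9 and TAP1 in the 2 target lists, and no receptor, kinase, STAT, IRF or ligand gene is filled.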

How the data were processed

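Per the labels' protocols, RNA was labelled with Affymetrix's whole-transcript assay and hybridised to Human Gene 1.0 ST arrays. The authors deposited 1 table of 33297 probe sets for the 8 arrays, on a log2 scale as read from the values (2.42 to 15.16). How probe sets were summarised and normalized is not given in the sources used here. Array medians ran from 7.25 to 7.37, so values were tested as deposited.

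Symbols came from the platform annotation, updated by gene identifier through RefSeq (GRCh38.p14), which matched 19429 of the 19460 probe sets with 1 symbol. There were 1754 with several and 12083 with none. The 21214 with any symbol were fitted with limma 3.58.1 in R 4.3.3 (1 coefficient per group, 4 residual degrees of freedom per probe set, eBayes), and the procedure was tested on simulated data. The number of arrays limits the precision.

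All 8 measured members are named. From each pathway list the text names genes called in an averaged contrast and otherwise up to 3 with the smallest p. Genes beyond this rule are marked as named after their values were seen. The members and lists were chosen with earlier results of these data known. Some genes of the lists are not reported here, and GBP1 shares its probe set with other genes.

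The labels number the 2 replicates of each group, and the number was used as a block in an alternative fit. That fit takes arrays of the same number in different groups as belonging together, which was an assumption. Same-numbered deviations correlated at 0.31 to 0.44 in 4 of the 6 pairs of groups, and at 0.01 and -0.20 in the others, both with control siRNA, vehicle. Alternatives also covered filters, normalization, the spread model and leaving out each array.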

Additional observations from a re-analysis of the deposited data

How the results depend on the processing

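None of the 8 members was called in any of the 5 comparisons under any alternative run, including the replicate block (0 in each) and each array left out (0 to 0), so their changes rest on values and intervals. IRF9, IRF1, IRF7 and JAK1 kept the direction of their averaged knockdown change in all alternatives. After a further quantile normalization the difference between media turned to -0.02 for IRF7 and -0.05 for IRF9. The other turns came from leaving out 1 array, given as lowest to highest change. In the averaged knockdown the direction turned for IFNAR1 (-0.24 to 0.12), IFNGR1 (-0.17 to 0.05), IFNGR2 (-0.10 to 0.01), TYK2 (-0.02 to 0.05), STAT6 (-0.00 to 0.10), IRF8 (-0.03 to 0.21), CISH (-0.10 to 0.04) and IKBKE (-0.01 to 0.11). In the knockdown in vehicle the direction turned for IFNAR1 (-0.49 to 0.23), IFNAR2 (-0.05 to 0.17), IFNLR1 (-0.21 to 0.02), IFNGR1 (-0.29 to 0.13) and JAK1 (-0.59 to 0.27). In the knockdown in E2 the direction turned for IFNAR1 (-0.13 to 0.16), IFNLR1 (-0.15 to 0.01) and IFNGR1 (-0.26 to 0.18). In the difference between media the direction turned for IFNAR1 (-0.22 to 0.50), IFNLR1 (-0.09 to 0.14), IFNGR1 (-0.18 to 0.26), JAK1 (-0.79 to 0.08), IRF1 (-0.09 to 0.20), IRF7 (-0.13 to 0.18) and IRF9 (-0.11 to 0.19). In averaged E2 the direction turned for IFNAR1 (-0.07 to 0.29), IFNLR1 (-0.04 to 0.07), IRF1 (-0.03 to 0.11) and IRF7 (-0.10 to 0.06). None of these was a call, and the cause was not tested.

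With the replicate block, 285 probe sets were called in the averaged knockdown against 97 without it, 509 against 329 in averaged E2, and 37 in vehicle and 45 in E2 against 0. With the block's control siRNA, vehicle numbers crossed, the averaged knockdown called 170. Among the other regulators and ligands the block also called USP18, IFNL2 and IFNL3, and with those numbers crossed USP18 was called and no ligand was. With all probe sets in the fit 0 were called in the averaged knockdown and 99 in averaged E2, and the 4 ISGF3-type and 2 interferon-γ-type calls were lost, as was the E2 call of CISH. With a trended robust spread 1 ISGF3-type gene was called. Restricting each within-medium fit to its own 4 arrays gave 63 calls in vehicle and 1 in E2. With each array left out, counts ran from 0 (without either 17b-HSD1 siRNA E2 array) to 186 (without 17b-HSD1 siRNA vehicle replicate 2) in the averaged knockdown, where leaving out control siRNA vehicle replicate 1 gave 29, from 0 to 30 (without either control siRNA E2 array) in vehicle, from 0 to 65 (without control siRNA E2 replicate 2) in E2 and from 121 to 319 in averaged E2, where control siRNA E2 replicate 2 (197 without it) and 17b-HSD1 siRNA E2 replicates 1 (137) and 2 (121) moved the count most. The alternatives for the lists and their named genes were chosen after seeing the data.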
